A study of Danio rerio with 12 samples.

Results

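The genes described here are those of fibroblast growth factor (FGF) signalling and of the feedback on the MAP kinase ERK, read in tumour cells sorted from zebrafish neuroblastomas. They were chosen by symbol: rows beginning with fgf, fgfr, dusp, spry, spred or etv followed by a digit, which gave 68 of the 14581 genes in the table. EGFP-positive cells came from tumour-bearing MYC transgenic fish (8 libraries) and from tumour-bearing MYCN transgenic fish (4 libraries), and no tumour-free or untreated group was part of the comparison. The EGFP label, the mechanical break-up, the sort into Trizol-LS and the depletion of ribosomal RNA were common to both groups. The labels give neither the promoter behind the transgenes nor the age of the fish, and they do not say whether replicates are separate animals. Values are FPKM, fragments scaled to transcript length and library size, so levels of different genes can be set side by side.

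FGFs are secreted ligands that, held by heparan sulphate, pair receptor tyrosine kinases and pass a signal through adaptors, RAS, RAF and MEK to ERK. ERK then switches on its own restraints: Sprouty and Spred proteins, which block the path to RAS and RAF, and dual-specificity phosphatases, which take phosphate off the MAP kinases. The Ets factors etv4, etv5a and etv5b are transcribed in response to ERK as well, and in the zebrafish embryo they serve, with dusp6, spry2 and spry4, as markers of active FGF signalling. In human neuroblastoma the same cascade is known for mutations in ALK and in RAS pathway genes. Roles given below come from mammalian work except where zebrafish is named.

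RNA of spry2, a Sprouty inhibitor, was lower in the MYC cells than in the MYCN cells, and so was that of dusp16 and dusp8a, phosphatases for JNK and p38 kinases. The MYC cells had more RNA of the Ets factor etv4, of dusp5, a nuclear ERK phosphatase, and of fgf12b, an intracellular FGF homologous factor. The calls of dusp5 and dusp8a were not stable and ended in several fits that left out a single library. The FGF receptor genes were low in both groups, and no secreted FGF ligand had a call. Of the 35 members tested, 3 were higher in MYC and 3 were lower, with 29 not passing (limma, Benjamini-Hochberg adjusted p under 0.05 over all 9606 genes tested). Of the 3 that rose, etv4 had all MYCN values under 1 FPKM and passed the filter on low values only through MYC libraries; with no filter it was called too (adjusted p = 0.0128). Across all genes tested, 5.77% were called higher and 7.63% lower, against 8.57% of the tested members in each direction, so the counts as such did not set these genes apart. The median log2 fold change, taken on log2(FPKM + 1), was 0.05 for the tested members and -0.05 for all genes tested. A gene was tested when 4 or more of the 12 libraries reached 1 FPKM. That left out 33 members, 28 of them under 1 FPKM in every library. The others were spry4 (above 1 FPKM in 2 libraries) and spry1, fgf2, fgf22 and fgfr3 (1 library each). With 4 libraries, dusp4 just passed. "Rose" and "fell" mark calls, MYC relative to MYCN.

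With the replicate number as a block, which pairs MYC 1 to 4 with MYCN 1 to 4 and leaves out MYC 5 to 8, 9 members were called higher and 4 lower, where 10.2% of all genes were called higher and 13.3% lower. What the number stands for is not given, so such a pairing of libraries is not established. With MYC 1 to 4 alone and no block the counts were 5 higher and 2 lower (background 4.80% and 4.69%). With MYC 5 to 8 alone they were 2 higher and 2 lower (background 4.12% and 4.73%). Some genes counted as higher had all MYCN values under 1 FPKM and passed the filter only through MYC libraries. With the block these were etv4, etv5b and dusp4. With MYC 1 to 4 alone they were etv4 and etv5b, and with MYC 5 to 8 alone etv4. Every MYC library lay above every MYCN library for 2 tested members, fgf12b and etv4 (3.73% of all genes tested), and below for 2, spry2 and dusp16 (5.60%). Since etv4 was tested only through its MYC values, its place in this count is partly set by the filter.

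**Figure D1:**
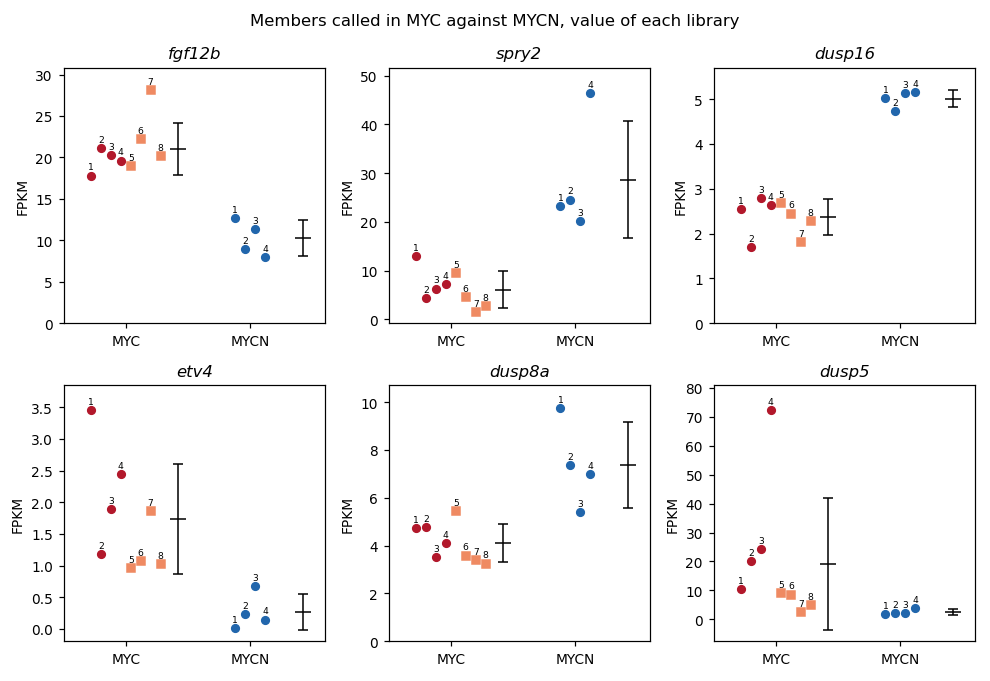
FPKM of the 6 called members in each library, with MYC at the left (circles for MYC 1 to 4, squares for MYC 5 to 8) and MYCN at the right; digits are replicate numbers and bars are the mean ± SD. The groups do not overlap for fgf12b, spry2, dusp16 and etv4, and MYC 4 stands far above the others for dusp5.

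The libraries themselves differed in total: in units of 1000 FPKM, MYC libraries held 567 to 1058 and MYCN libraries 610 to 867. Between 8688 and 9844 genes per MYC library, and between 8858 and 9513 per MYCN library, reached 1 FPKM. The number of fragments is unknown. The noradrenergic marker dbh, dopamine beta-hydroxylase, stood between 917 and 2632 FPKM in MYC and between 1753 and 3237 FPKM in MYCN libraries, so its RNA was present in all 12. Of 11 sympathoadrenal markers tested, none was higher and 4 were lower in MYC, and their summed level was 3524 to 5206 FPKM in MYC and 5835 to 7773 FPKM in MYCN. Macrophage markers were present in all libraries. Of 16 matched, 15 were tested and 10 were higher in MYC, none was at 0 throughout, and their summed level ran from 643 to 1930 FPKM in MYC 1 to 4, from 294 to 410 FPKM in MYC 5 to 8 and from 60.3 to 830 FPKM in MYCN. The top of the MYCN range was MYCN 3, where cd74a (549 FPKM) and cd74b (148 FPKM), both without a call, made up most of the sum. For 6 others (c1qa, c1qb, c1qc, mpeg1, mfap4 and spi1b), MYCN 3 lay below every MYC library. Pan-leukocyte markers (8 matched and tested, 6 higher) summed to 240 to 375 FPKM in MYC 1 to 4, 98.2 to 139 FPKM in MYC 5 to 8 and 30.3 to 115 FPKM in MYCN. Neutrophil markers (7 matched, 6 tested, 1 higher) went the other way between the MYC sets, with sums of 42.6 to 133 FPKM in MYC 1 to 4, 183 to 292 FPKM in MYC 5 to 8 and 48.8 to 86.5 FPKM in MYCN. Glia markers (1 tested, 1 lower) summed to 0.289 to 2.41 FPKM in MYC and 2.13 to 5.03 FPKM in MYCN. Fibroblast markers (1 tested, 1 lower) summed to 0.574 to 5.75 FPKM in MYC and 4.15 to 9.66 FPKM in MYCN. Of 2 kidney tubule markers tested, 1 was lower. No tested lymphocyte, endothelial or erythroid marker had a call. The part of any of these cell types in the results on the members was not tested. In such sorted bulk samples, a change in the share of a cell type and a change in RNA per cell cannot be told apart.

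Few FGF ligand genes passed the filter in these sorted cells, and the tumours as a whole were not read. Of the 24 genes of secreted FGFs, 20 did not pass the filter, 18 of them below 1 FPKM in all libraries. The endocrine ligand gene fgf23 was listed at 0 in all 12, and fgf8a, a main patterning signal of the embryonic brain and heart, reached no more than 0.283 FPKM. The 4 tested ligand genes were fgf10b, fgf18a, fgf1a and fgf17, and none had a call. The highest mean in MYC was that of fgf10b, a mesenchymal ligand of organ budding, at 14.2 ± 6.57 FPKM in MYC (SD, n = 8) and 9.25 ± 2.31 FPKM in MYCN (n = 4), a log2 fold change of 0.49 ± 0.31 (SE, limma adjusted p = 0.318). In MYC it ranged from 7.71 over a median of 12.9 to 26.7 FPKM, and in MYCN it was 9.50, 12, 6.33 and 9.17 FPKM. The groups overlapped, with some MYC libraries above all of MYCN and MYCN 3 the lowest of all. For fgf18a, a ligand of bone and neural tissue and the highest of the 4 in MYCN, the averages were 9.79 ± 7.31 FPKM in MYC and 15.1 ± 3.77 FPKM in MYCN (-0.81 ± 0.43, adjusted p = 0.237). Its MYC libraries ran from 3.05 to 24.6 FPKM and enclosed all MYCN values, 11.8 to 19.7 FPKM. The third, fgf1a, a ligand without a classical secretion signal, was at 5.48 ± 4.27 FPKM in MYC and 3.02 ± 1.42 FPKM in MYCN (adjusted p = 0.462).

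The FGF homologous factors are the relatives that stay in the cell and bind voltage-gated sodium channels instead of acting as classical receptor ligands. Of the 6, 4 were tested and 1 rose. This was fgf12b, at between 17.8 and 28.1 FPKM in MYC, with a median of 20.2 FPKM, against 12.7, 8.96, 11.4 and 8.02 FPKM in MYCN. Every MYC library was above every MYCN library. Means were 21.0 ± 3.14 FPKM in MYC and 10.3 ± 2.15 FPKM in MYCN (log2 fold change 0.98 ± 0.18, adjusted p = 0.00306), and the call held without any single library (adjusted p from 0.00428 to 0.0174) and with either set of MYC libraries alone (0.0333 with MYC 1 to 4 and 0.0244 with MYC 5 to 8). Its duplicate fgf12a stayed at or below 0.270 FPKM in all libraries. Any fragments shared between the duplicates would make both values less certain, and such sharing was not examined. For fgf13a, the averages were 19.1 ± 5.72 FPKM in MYC and 20.4 ± 1.94 FPKM in MYCN (-0.14 ± 0.23, adjusted p = 0.748). For fgf14 they were 17.1 ± 3.93 FPKM in MYC and 22.2 ± 2.38 FPKM in MYCN (-0.38 ± 0.20, adjusted p = 0.222). The fourth tested member, fgf13b, spread from 0.00729 to 3.84 FPKM in MYC and from 0.520 to 5.30 FPKM in MYCN, and had no call (adjusted p = 0.354).

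The receptors were low in both groups. Of the 5 receptor genes, fgfr1a alone passed the filter, at 0.488 to 1.68 FPKM in MYC with a median of 0.900 FPKM, and at 1.05, 1.15, 1.39 and 1.23 FPKM in MYCN. The MYCN values lay inside the MYC range. The log2 fold change was -0.22 ± 0.19 (adjusted p = 0.491). The gene fgfr3 reached 1.21 FPKM in MYC 1 and stayed between 0.0662 and 0.553 FPKM in the other MYC libraries and between 0.163 and 0.252 FPKM in MYCN. For fgfr2 the range was 0.105 to 0.641 FPKM in MYC, with a median of 0.232 FPKM, against 0.364, 0.245, 0.110 and 0.178 FPKM in MYCN. The highest values of fgfr4 and fgfr1b in any library were 0.234 and 0.0845 FPKM. The groups overlapped for every receptor gene. The symbol rule also took in fgfr1op and fgfr1op2, which are no receptors: fgfr1op encodes a centrosomal protein, and both take their names from fusions with the human receptor gene in blood cancers. They had far higher levels than the receptors, with fgfr1op at 25.6 ± 4.51 FPKM in MYC and 24.5 ± 4.79 FPKM in MYCN (adjusted p = 0.868). For fgfr1op2 the levels were 56.8 ± 16.6 FPKM in MYC and 36.6 ± 8.18 FPKM in MYCN (0.58 ± 0.26, adjusted p = 0.153). A call appeared without MYC 3 (0.0498), with median-ratio scaling (0.0225) and with quantile normalisation (0.0230).

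Among the Sprouty and Spred genes, spry2 had the log2 fold change farthest from 0 of the called members over all 8 MYC libraries, on log2(FPKM + 1). In MYC it stood between 1.46 and 12.9 FPKM with a median of 5.49 FPKM, against 23.3, 24.6, 20.3 and 46.5 FPKM in MYCN. No MYC library reached the lowest MYCN library. Means were 6.13 ± 3.75 FPKM in MYC and 28.7 ± 12 FPKM in MYCN, a log2 fold change of -2.17 ± 0.41 (adjusted p = 0.0034). It was -1.79 in MYC 1 to 4 alone (0.0129) and -2.55 in MYC 5 to 8 alone (0.00945), and the call held without any single library (0.0018 to 0.0185).

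The other Sprouty genes were scarce and did not pass the filter. For spry4, values ran from 0.111 to 4.52 FPKM in MYC, with a median of 0.727 FPKM, against 0.186, 0.0663, 0.0651 and 0.0845 FPKM in MYCN. The groups overlapped through MYC 7, and only MYC 3 and MYC 5 were above 1 FPKM. Fitted with no filter, its log2 fold change was 0.75 ± 0.34 (adjusted p = 0.205), opposite in sign to that of spry2. For spry1, values ran from 0.0250 to 1.87 FPKM in MYC, with a median of 0.367 FPKM, against 0.120, 0.244, 0.228 and 0.518 FPKM in MYCN (adjusted p = 0.673 with no filter). The Spred genes, whose proteins bring the RAS inhibitor neurofibromin to the membrane, had no call. For spred1, MYC libraries ran from 2.22 to 21.1 FPKM with a median of 6.38 FPKM, against 5.39, 8.88, 4.87 and 7.75 FPKM in MYCN (0.03 ± 0.41, adjusted p = 0.971). For spred3 they ran from 1.01 to 16.4 FPKM with a median of 3.76 FPKM, against 3.21, 3.39, 2.27 and 6.32 FPKM in MYCN (0.02 ± 0.46, adjusted p = 0.985). In both, MYC 5 was the highest of all libraries and the MYC range enclosed that of MYCN. For spred2b, the range was 1.27 to 3.12 FPKM with a median of 2.57 FPKM in MYC, against 2.84, 1.85, 2.66 and 4.55 FPKM in MYCN (-0.20 ± 0.23, adjusted p = 0.627).

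All 8 genes of the MAP kinase phosphatases were tested: 1 rose, 2 fell and 5 did not pass. The pair that fell act mainly on the stress kinases JNK and p38. In MYC, dusp16 lay between 1.70 and 2.79 FPKM with a median of 2.5 FPKM, against 5.03, 4.73, 5.13 and 5.15 FPKM in MYCN. The groups do not touch. Means were 2.36 ± 0.41 FPKM in MYC and 5.01 ± 0.20 FPKM in MYCN, a log2 fold change of -0.85 ± 0.17 (adjusted p = 0.00521, and 0.00651 to 0.0218 without a single library). In MYC, dusp8a lay between 3.25 and 5.45 FPKM with a median of 3.85 FPKM, against 9.77, 7.38, 5.41 and 7.0 FPKM in MYCN. The groups met at MYC 5 and MYCN 3. It fell by 0.71 ± 0.20 (adjusted p = 0.0297). That call ended without MYCN 1 (adjusted p = 0.108), MYCN 2 (0.0778), MYCN 4 (0.0754), MYC 6 (0.0516) or MYC 8 (0.0527), and with either MYC set alone (0.131 for MYC 1 to 4 and 0.0940 for MYC 5 to 8).

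The phosphatase that rose was dusp5, an inducible nuclear enzyme specific for ERK. In MYC it stood between 2.53 and 72.4 FPKM with a median of 9.75 FPKM, against 1.79, 2.1, 2.18 and 3.92 FPKM in MYCN. All MYC libraries but MYC 7 were above MYCN, with MYC 1 to 4, from 10.3 to 72.4 FPKM, the highest. Means were 19.0 ± 22.8 FPKM in MYC and 2.5 ± 0.96 FPKM in MYCN (log2 fold change 1.95 ± 0.61, adjusted p = 0.0481). Dropping any single MYCN library took dusp5 past the threshold (adjusted p = 0.0820 to 0.117), as did dropping MYC 1, 2, 3, 5 or 6 (0.0587 to 0.0820). The call was also lost with no filter (0.0838), a pseudocount of 5 (0.0864), median-ratio scaling (0.0505) or a common sum (0.0805). The log2 fold change was 2.92 in MYC 1 to 4 (adjusted p = 0.00636) and 0.98 in MYC 5 to 8 (0.131).

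Of the phosphatases without a call, dusp6 is the cytoplasmic ERK phosphatase most used as a readout of FGF signalling. In MYC it ranged from 3.16 to 17.1 FPKM with a median of 7.87 FPKM, against 3.21, 2.18, 3.71 and 6.32 FPKM in MYCN. MYC 1 to 5 lay above all MYCN libraries, and MYC 6, 7 and 8 lay among them. Its log2 fold change was 0.91 ± 0.38 (adjusted p = 0.128). In MYC 1 to 4 alone it was 1.33 (adjusted p = 0.0352, or 0.0226 in the blocked fit), and in MYC 5 to 8 alone 0.50 (0.492). Its close relative dusp7 averaged 10.1 ± 4.42 FPKM in MYC and 9.22 ± 3.34 FPKM in MYCN (0.07 ± 0.33, adjusted p = 0.923). The nuclear phosphatases dusp2 and dusp4 varied widely. For dusp2, known from activated blood cells, MYC libraries ran from 1.95 to 122 FPKM with a median of 28.2 FPKM, against 2.41, 39.9, 4.76 and 17.4 FPKM in MYCN. Averages were 10.3 ± 9.08 FPKM in MYC 5 to 8 and 72.4 ± 40.9 FPKM in MYC 1 to 4, while MYCN 2 was higher than all of MYC 5 to 8. Over all MYC libraries the log2 difference came to 1.09 ± 0.93 (adjusted p = 0.487), against 2.55 in the blocked fit (0.0336).

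For dusp4, MYC libraries ran from 0.170 to 21.3 FPKM with a median of 2.64 FPKM, against 0.778, 0.810, 0.525 and 0.404 FPKM in MYCN. MYC 1 to 6 stood above MYCN, and MYC 7 and MYC 8 stood below it. It had no call (1.09 ± 0.63, adjusted p = 0.282, and 0.0400 with the block), and it passed the filter only through 4 MYC libraries. The MAP kinase phosphatase gene with the highest mean FPKM, dusp1, an immediate early gene, was at 66.7 ± 44.2 FPKM in MYC and 75.7 ± 36.8 FPKM in MYCN (-0.36 ± 0.53, adjusted p = 0.708). It averaged 32.7 ± 16.2 FPKM in MYC 5 to 8 and 101 ± 34.7 FPKM in MYC 1 to 4, where the macrophage markers were also higher and the neutrophil markers lower. In MYCN 1 to 4, dusp1 stood at 39.6, 117, 50.3 and 95.8 FPKM. The macrophage sums there were 167, 60.3, 830 and 92.7 FPKM, and the neutrophil sums 48.8, 86.5, 77.2 and 72.5 FPKM. MYCN 2, the highest MYCN library for dusp1 and dusp2, had the lowest macrophage sum and the highest neutrophil sum. MYCN 1, the lowest MYCN library for both genes, had the lowest neutrophil sum. The part of macrophages and neutrophils in the values of dusp1, dusp2, dusp4 and dusp5 was not tested.

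**Figure D2:**
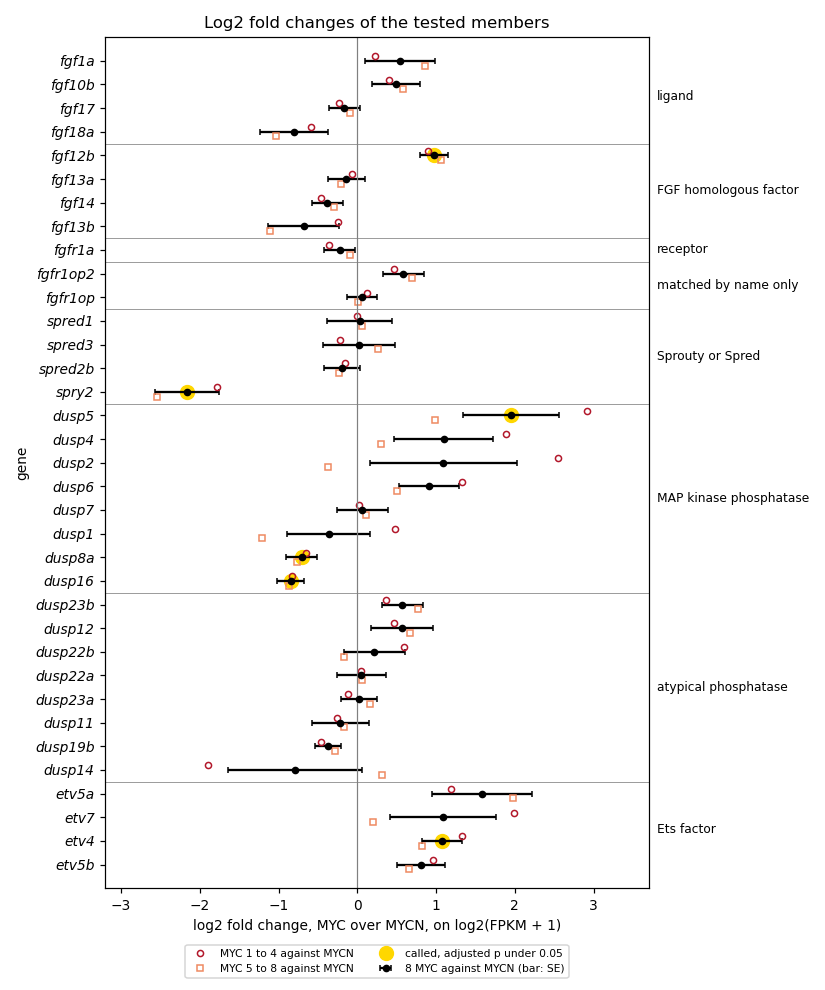
Log2 fold changes of the 35 tested members, MYC over MYCN, by class; black points with SE bars use all 8 MYC libraries, open circles MYC 1 to 4 and open squares MYC 5 to 8, and yellow marks the called genes. For fgf12b and dusp16 the sets nearly coincide, whereas dusp5, dusp2, dusp1 and dusp14 differ widely between them.

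Of the 10 atypical dual-specificity phosphatases, small enzymes that lack the MAP kinase binding domain, 8 were tested and none had a call. By unadjusted p, 2 of the 8 were under 0.05, as were 2746 of all 9606 genes tested, so this count did not set them apart. The 2 were dusp19b and dusp23b. For dusp19b the levels were 21.8 ± 2.77 FPKM in MYC and 28.4 ± 2.68 FPKM in MYCN (-0.37 ± 0.16, adjusted p = 0.140). For dusp23b they were 29.9 ± 9.35 FPKM in MYC and 19.7 ± 5.76 FPKM in MYCN (0.57 ± 0.26, adjusted p = 0.164). The most variable was dusp14, at 2.27 to 79.2 FPKM in MYC with a median of 12.6 FPKM, and at 6.50, 8.60, 67.3 and 93.4 FPKM in MYCN. The highest library was 34.9 times the lowest in MYC and 14.4 times in MYCN, and MYC 7 was the highest MYC library here. Its log2 difference was -0.79 ± 0.85 (adjusted p = 0.597), and -1.89 in the blocked fit (0.0261). The RNA phosphatase dusp11 and the others, dusp12, dusp22a, dusp22b and dusp23a, had adjusted p from 0.373 to 0.969.

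Of the 7 Ets factor genes, 4 were tested, 1 rose and 3 did not pass. The PEA3 subfamily factor etv4 stood between 0.957 and 3.45 FPKM in MYC with a median of 1.52 FPKM, against 0.0126, 0.235, 0.677 and 0.148 FPKM in MYCN. All MYC libraries were above all MYCN libraries, though the level was low throughout and the gene passed the filter only through MYC libraries. The log2 fold change was 1.08 ± 0.25 (adjusted p = 0.0122, from 0.0111 to 0.0479 without a single library). It was 1.33 in MYC 1 to 4 alone (0.0153) and 0.82 in MYC 5 to 8 alone (0.0473).

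Its relatives etv5a and etv5b had higher means in MYC without a call. For etv5a, MYC libraries ran from 0.616 to 17.2 FPKM with a median of 8.86 FPKM, against 0.942, 0.641, 0.723 and 2.75 FPKM in MYCN. MYC 3, 4, 5, 6 and 8 were above all MYCN libraries, and MYC 1, 2 and 7 were not. Its log2 difference came to 1.58 ± 0.63 (adjusted p = 0.115, but 0.0429 without MYC 7 and 0.0419 in the blocked fit). For etv5b, MYC libraries ran from 0.345 to 3.49 FPKM with a median of 1.03 FPKM, against 0.474, 0.232, 0.0954 and 0.443 FPKM in MYCN. Only MYC 7 overlapped with MYCN. Like etv4, it passed the filter only through MYC libraries. Its log2 difference was 0.81 ± 0.30 (adjusted p = 0.0972, or 0.0278 in the blocked fit and 0.0457 with MYC 1 to 4 alone). The fourth PEA3 gene in the table, etv1, reached no more than 0.0485 FPKM.

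The TEL subfamily gene etv7 encodes a repressor. It ranged from 0.193 to 10.9 FPKM in MYC with a median of 3.01 FPKM, against 0.783, 0, 7.83 and 0.255 FPKM in MYCN. MYC 1 to 4, at 3.06 to 10.9 FPKM, and MYCN 3, at 7.83 FPKM, were the 5 highest, next to 2.95 FPKM in MYC 8, and they are also the 5 libraries with the highest summed macrophage markers. In MYCN 3, most of the sum of 830 FPKM came from cd74a (549 FPKM) and cd74b (148 FPKM). For c1qa, c1qb, c1qc, mpeg1, mfap4 and spi1b, MYCN 3 lay below every MYC library. For csf1ra, ctssb.1, ctssb.2, grn1, grna and lgals9l1 it lay within the MYC range. The part of macrophages in the value of etv7 was not tested. Its log2 difference was 1.09 ± 0.67 (adjusted p = 0.312, or 0.0154 in the blocked fit). The related etv6 was listed at 0 in all 12 libraries, which in a table without counts need not mean that no RNA was there. The factor etv2, a master gene of endothelium, reached no more than 0.265 FPKM, and 10 of the 11 matched endothelial markers, etv2 among them, were below 1 FPKM in all libraries.

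**Figure D3:**
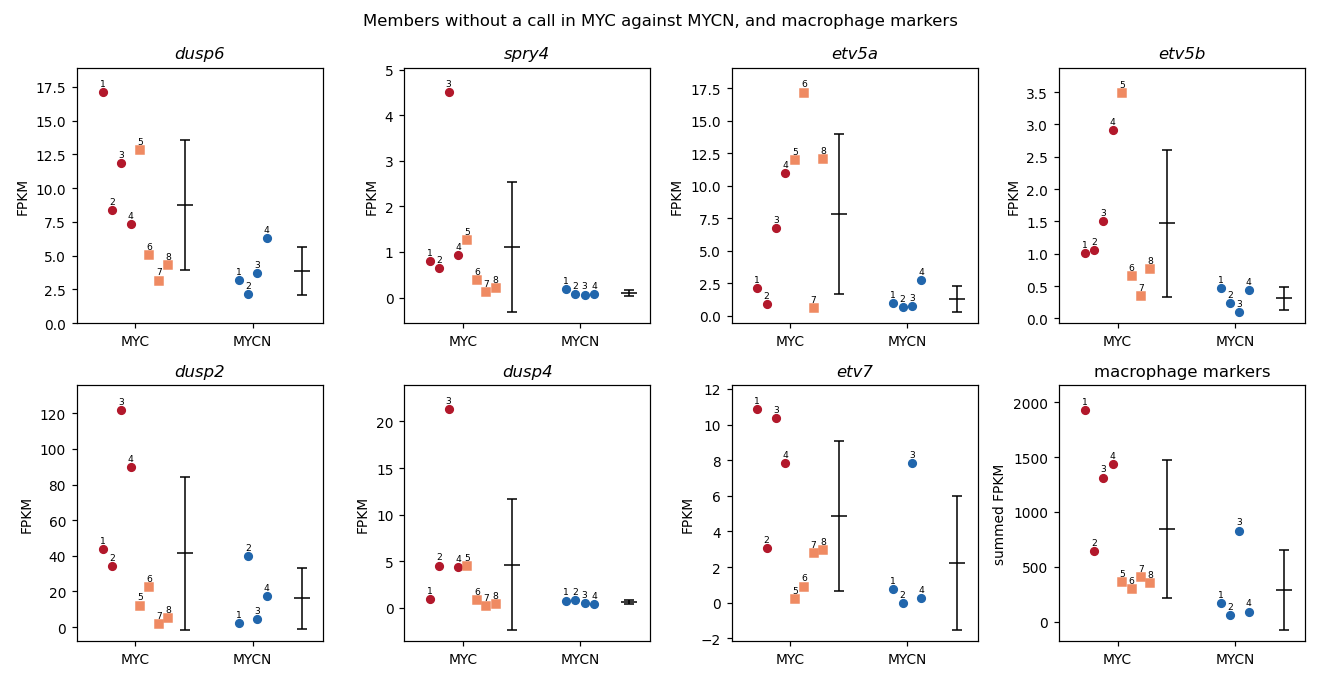
FPKM of 7 members without a call and the summed FPKM of the macrophage markers in each library; MYC at the left (circles for MYC 1 to 4, squares for MYC 5 to 8), MYCN at the right, digits are replicate numbers and bars are the mean ± SD. MYC 7 lies within or below the MYCN range for dusp6, spry4, etv5a, etv5b, dusp2 and dusp4. The highest values of etv7 are in the libraries with the highest macrophage sums, MYC 1 to 4 and MYCN 3, but MYC 8 lies close below MYC 2. The sum in MYCN 3 is mostly cd74a and cd74b.

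For several members the MYC libraries spread widely. The labels give MYC 1 to 4 numbers that MYCN has too, and MYC 5 to 8 have none in common with it. In a fit with 3 sets of 4 libraries, no member was called between MYC 5 to 8 and MYC 1 to 4 (limma, adjusted p under 0.05), with 6 of 35 under 0.05 unadjusted. Over all genes 53 of 9606 were called (0.552%; 0.156% higher and 0.396% lower in MYC 5 to 8) and 878 were under 0.05 unadjusted. The 6 were dusp2 (-2.92 ± 0.77, adjusted p = 0.137), dusp5 (-1.94 ± 0.49, 0.116), etv7 (-1.79 ± 0.63, 0.332), dusp1 (-1.69 ± 0.43, 0.116) and dusp4 (-1.58 ± 0.62, 0.408), all with lower log2 means in MYC 5 to 8, and dusp14 (2.21 ± 0.81, 0.366), with a higher mean there.

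A single library was often the lowest. MYC 7 was the lowest of the 8 MYC libraries for 18 of the 35 tested members (51.4%), where it was lowest for 23.3% of all genes tested. After median-ratio scaling it was lowest for 14 members (40.0%) and for 13.8% of all genes. With that scaling it was also the highest MYC library for 6 members (17.1%) and for 18.7% of all genes. The 18 include 6 of the 8 MAP kinase phosphatases (dusp1, dusp2, dusp4, dusp5, dusp6 and dusp7), spry2, all 3 Spred genes, etv5a and etv5b. After the scaling MYC 2 was lowest for dusp7 and spred2b, and MYC 7 stayed lowest for the others of these. By contrast MYC 3, lowest for 28.8% of all genes, was lowest for only 3 members (8.57%). In the other group, MYCN 1 was the lowest MYCN library for 28.6% of members and 13.6% of all genes. After the scaling these shares were 42.9% and 26.7%. The genes dusp16, dusp8a and etv4 were not at their lowest in MYC 7. This reading of single libraries was made after the values were seen.

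**Figure D4:**
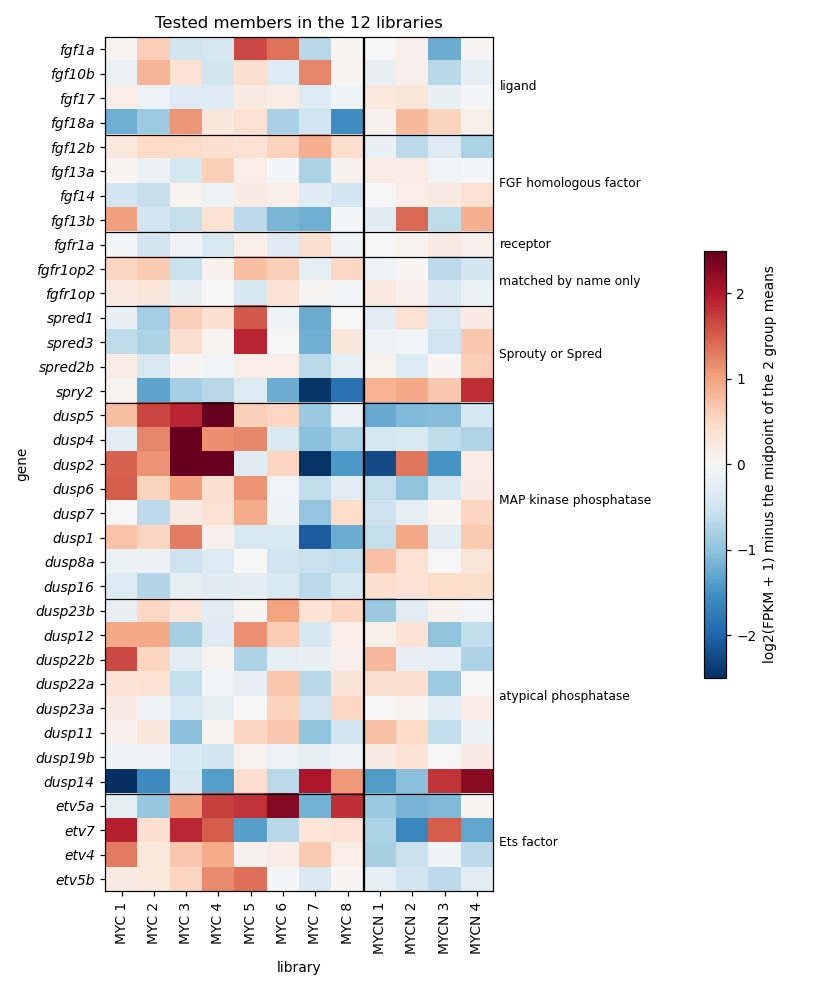
The 35 tested members (rows, by class) in the 8 MYC and 4 MYCN libraries (columns); colour is log2(FPKM + 1) minus the midpoint of the group means, capped at the ends of the scale. The column of MYC 7 is blue through most Sprouty, Spred and MAP kinase phosphatase rows, and spry2, dusp16 and dusp8a are bluer in MYC than in MYCN.

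The rest of the pathway was read from 6 lists of symbols, each given with the genes called and no test of the list. Of the FGF coreceptors and adaptors, 20 of 33 symbols were matched and 15 tested. None rose and 1 fell, with a median log2 fold change of -0.11. With the replicate block 3 fell. Without the block the gene was gab1, a docking protein downstream of receptor tyrosine kinases, at 10.9 ± 3.61 FPKM in MYC and 24.1 ± 0.91 FPKM in MYCN (-1.13 ± 0.23, adjusted p = 0.00598). The feedback inhibitor il17rd, known as Sef in zebrafish, was at 0.809 FPKM in MYC and 1.25 FPKM in MYCN on average (-0.31 ± 0.20, adjusted p = 0.334). Of the heparan sulphate genes, 19 of 33 were matched, 16 tested and 3 fell (median -0.45), and 3 with the block as well, hs6st2 in place of gpc1b. The sulphatase gene sulf2b fell by 1.31 ± 0.30 (adjusted p = 0.0120), and the glypican gene gpc1b fell by 1.5 ± 0.36 (0.0144, but 0.0652 without MYCN 4 and 0.0508 with the block). The third was extl3, a glycosyltransferase of heparan sulphate synthesis (-0.75 ± 0.22, adjusted p = 0.0376), which lost its call when MYCN 1, 2 or 4 or MYC 2, 4, 6 or 8 was left out (0.0514 to 0.121).

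All 29 matched genes of the RAS to ERK cascade, of 34 symbols, were tested, and 2 rose and 2 fell (median -0.24). With the replicate block 3 were called higher and 5 lower. The kinase gene mapk3 was at 62.5 FPKM in MYC and 74.3 FPKM in MYCN on average and had no call (-0.29 ± 0.21, adjusted p = 0.402). Those that fell were ksr2, a scaffold for RAF, MEK and ERK, at 8.84 ± 2.71 FPKM in MYC and 22.3 ± 4.88 FPKM in MYCN (-1.28 ± 0.25, adjusted p = 0.00396), and the ERK-activated kinase rps6ka1 (-1.27 ± 0.26, adjusted p = 0.00603). Those that rose were the ERK-activated kinase mknk2b (1.32 ± 0.34, adjusted p = 0.0193, but 0.0524 without MYCN 3 and 0.0823 without MYCN 4) and the RAS gene hrasa (0.96 ± 0.30, adjusted p = 0.0466). The call of hrasa ended with no filter (0.0652) and without MYCN 1, 3 or 4 or without MYC 1, 2, 4, 5, 6 or 8 (0.0590 to 0.139). Its duplicate hrasb had the other sign and no call (-0.91 ± 0.29, adjusted p = 0.0576, or 0.00988 with the block).

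Of other restraints on RAS and ERK, only 11 of 31 symbols were matched and 8 tested (median 0.16), with 1 called higher and 1 lower under the block. The 1 that rose was rasd1, a RAS-like GTPase inducible by dexamethasone. It was at 87.9 ± 51.4 FPKM in MYC and 8.41 ± 5.42 FPKM in MYCN (3.07 ± 0.59, adjusted p = 0.00399). Its range was 11.6 to 158 FPKM in MYC and 3.92 to 15.7 FPKM in MYCN, with MYC 7 below MYCN 4. Of the JNK and p38 kinases and the kinases that activate them, 14 of 15 matched genes were tested (23 symbols), and 1 rose and 1 fell (median -0.02). With the block none was called higher and 2 lower. The JNK gene mapk8a was at 4.82 ± 1.02 FPKM in MYC and 9.23 ± 0.73 FPKM in MYCN (-0.83 ± 0.19, adjusted p = 0.0106). Its duplicate mapk8b had no call (0.22 ± 0.23, adjusted p = 0.579). The p38 gene mapk14b rose by 0.97 ± 0.23 (adjusted p = 0.0139, but 0.0606 without MYCN 2, 0.0601 without MYCN 4 and 0.0582 with the block). The duplicate mapk14a, at 57.7 FPKM in MYC and 84.8 FPKM in MYCN on average, had the other sign and no call (-0.66 ± 0.45, adjusted p = 0.370).

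Among other Ets factors, 15 of 21 symbols were matched and 13 tested, and 3 rose and 1 fell (median -0.04). With the block 5 were called higher and 1 lower. Of those that rose, spi1b (1.99 ± 0.34, adjusted p = 0.00189) and spi1a (1.69 ± 0.39, adjusted p = 0.0119) are factors of myeloid cells, and spi1b is also among the macrophage markers. The third was fli1b, a factor of endothelium and blood, at 2.05 FPKM in MYC and 0.439 FPKM in MYCN on average (0.99 ± 0.30, adjusted p = 0.0416). It passed the filter only through MYC libraries, and with no filter it had no call (0.0527). The epithelial factor ehf fell by 0.85 ± 0.25 (adjusted p = 0.0410, and 0.0511 with the block). The calls of fli1b and ehf ended without any of 9 libraries each (0.0511 to 0.124 for fli1b and 0.0519 to 0.139 for ehf). For fli1b these were all 4 MYCN libraries and MYC 2 to 6. For ehf they were MYCN 1, 2 and 4 and MYC 2, 3, 4, 5, 7 and 8.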

How the data were processed

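Tumours were broken up and EGFP-positive cells sorted, per the labels; paired reads of 100 bp were sequenced. The authors deposited a table with FPKM values for each library; cutadapt, TopHat2 2.0.11 and Cufflinks 2.2.1 are named in the submitters' processing notes, and the genome build and annotation are not given in the sources used here. Low values hold no common step of single fragments: between pairs of libraries, the fullest bin (0.1 on the log2 scale) of ratios below 0.5 FPKM held 2.70% to 10.7% of genes, so depth is unknown and no counting interval is given. Since nothing ties replicates to separate fish, p-values cover only the variation among these libraries, which may be technical.

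Genes reaching 1 FPKM in 4 or more libraries were fitted on log2(FPKM + 1), a scale that understates ratios of low genes, with limma 3.58.1 in R 4.3.3 (trend, MYC minus MYCN, two-sided, Benjamini-Hochberg over 9606 genes). The script was tested on simulated data. Pairing by replicate number was checked: deviations from the set mean correlated across genes between MYC and MYCN libraries of the same number at 0.363, 0.471, 0.564 and 0.163, all above 0.1, so the block is given for members where it changes a call and as counts for the other lists. For number 4 another library correlated better, and MYC 5 to 8, taken in order, gave 0.123, 0.273, 0.552 and 0.0890 with MYCN 1 to 4. Median-ratio factors were 1.20, 1.11, 0.856 and 0.990 for MYCN 1 to 4. They were 1.21, 1.11, 0.811 and 0.853 for MYC 1 to 4, and 1.22, 1.09, 0.786 and 1.05 for MYC 5 to 8. Values were not rescaled for this check, so it cannot tell a pairing from a like library scale. What a number stands for is not given. The MYC sets follow the replicate numbers. Genes at 0 in exactly 1 set of 4 libraries numbered 2 for MYC 1 to 4, 6 for MYC 5 to 8 and 12 for MYCN, against at most 6 for any other 4 libraries. Zeros thus did not mark MYC 1 to 4, while MYC 5 to 8 equalled the highest of the other sets without passing it.

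The members and lists were chosen with earlier results of these data known. Values in every library, or their range, are given for called members and for the Sprouty, Spred, dusp6, PEA3 and receptor genes whatever their result. Other members are given by range and count, or where they stand out in their class. The genes dusp1, dusp2, dusp4, dusp14, etv7, fgfr1op2, il17rd, mapk3, extl3, fli1b, hrasb, mapk8b and mapk14a were among those named after their values were seen. So were dusp7, dusp19b, dusp23b, hs6st2 and the single macrophage markers. Symbols were matched to the table directly or through RefSeq synonyms. No sequences are shown.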

Additional observations from a re-analysis of the deposited data

Results flagged for a closer look

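Among 70 sets of values (35 tested members in each group), 10 had a library far from the rest of its group by Dixon's criterion at 95%, applied to FPKM. A chance rate of about 1 set in 20 holds for independent sets of normally distributed values. FPKM need not follow that distribution and the sets share the same 12 libraries, so the 10 cannot be judged against this rate. In MYC, the highest library stood apart for dusp5 (72.4 FPKM in MYC 4, next 24.2), dusp4 (21.3 FPKM in MYC 3, next 4.53), dusp22b (58.8 FPKM in MYC 1, next 26.7) and fgf12b (28.1 FPKM in MYC 7, next 22.2). The same held for spred1 (21.1 FPKM in MYC 5, next 10.5) and spred3 (16.4 FPKM in MYC 5, next 5.22). In MYCN, the highest library stood apart for spry2 (46.5 FPKM in MYCN 4, next 24.6), etv5a (2.75 FPKM in MYCN 4, next 0.942) and etv7 (7.83 FPKM in MYCN 3, next 0.783). The lowest stood apart for fgf1a (0.911 FPKM in MYCN 3, next 3.53). Without MYCN 4, spry2 still fell, and without MYC 7, fgf12b still rose. Without MYC 4, dusp5 still rose, but its call ended without any single MYCN library or without MYC 1, 2, 3, 5 or 6.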

How the results depend on the processing

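The calls of fgf12b, spry2, dusp16 and etv4 held under both other pseudocounts, with no filter, under all 3 scalings, without any single library, in both MYC sets and with the replicate block; dusp16 and etv4 did not pass the filter at 5 FPKM. No called member changed sign under any alternative. Members called higher numbered 9 with the replicate block and 5 with MYC 1 to 4 alone, beside 3 in the main fit. Each of these counts includes genes that passed the filter only through MYC libraries, etv4 among them. The genes called over the whole table numbered 1287 in the main fit, 2261 with the replicate block and 850 with MYC 5 to 8 alone, and ranged from 707 (without MYCN 4) to 1346 (without MYC 3) when a library was left out. Members called higher ranged from 2 to 4 and members called lower from 2 to 3 without a library, and no member was called between the MYC sets under any alternative. The cause of these shifts was not tested. With FPKM alone, depth is unknown, and a level under 1 FPKM is only weakly measured.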
